A study of Mus musculus with 6 samples.

Results

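Aminoacyl-tRNA synthetases are the enzymes that join each amino acid to its transfer RNA (tRNA), and 36 genes that encode them were followed in mouse macrophages kept 6 h with WGP. The members were chosen by name among the 20283 genes that probes of the array name, with earlier results of these data known. They comprise a cytosolic set of 20 genes and a mitochondrial set of 16 genes. The cells were bone-marrow-derived macrophages of C57BL/6 mice aged 6 to 8 weeks, described by the labels as polarized to the M2, or alternatively activated, state, and the agent used for polarization is not named there. The WGP group was incubated 6 h in complete DMEM containing WGP, an agent the labels give only by this name, and the medium group was incubated 6 h in complete DMEM without it. Both groups share the strain, the age and the M2 polarization, and no genetic change is given.

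Each group has 3 deposited 1-colour Agilent array files, but replicate 3 of both groups repeated the spot signals of replicate 1 at all 44397 spots, so that n = 2 arrays per group were used throughout. Whether these arrays come from different cultures or mice is not given in the labels, and the p-values therefore reflect only how far the arrays of a group lay apart, which may be a technical spread. A level is given as log2 of the background-subtracted spot signal relative to the 75th percentile of its array, and a change as the WGP mean minus the medium mean on that scale. That percentile was 59.2 and 56.1 on the WGP arrays, against 85.8 and 68.6 on the medium arrays. The scanner software called 45.0% to 50.6% of 39429 probes well above background. A gene counted as measured if its probe stood well above background on both WGP arrays or on both medium arrays, and as changed if its p-value in limma's moderated test, adjusted by Benjamini and Hochberg over the 10947 genes measured, was under 0.05. Of these genes 40.5% changed, 23.2% higher and 17.4% lower with WGP. All 7 macrophage markers with a named probe, among them Csf1r and Adgre1, were well above background on all 4 arrays. Of 5 markers of alternative activation, Arg1 and Retnla were well above background on 0 of 4 arrays, and Mrc1 and Clec10a on all 4. The summed level of these 5 markers was 2.70 and 2.63 on the WGP arrays and 4.63 and 4.35 on the medium arrays. Of 5 T cell markers, Cd3e and Cd4 were well above background on all arrays and Cd3g and Cd3d on none, and their summed levels overlapped between the groups. So did those of 4 neutrophil markers (4.30 and 4.27 on the WGP arrays, 4.55 and 4.24 on the medium arrays), 3 dendritic cell markers (0.14 and -0.18, against -0.14 and -0.94) and 4 fibroblast markers (3.40 and 3.47, against 3.87 and 3.28). The B cell marker Cd79b was well above background on 0 WGP and 2 medium arrays, with mean levels of -4.244 with WGP and -1.004 in medium, Cd79a on 1 WGP and 2 medium arrays (-2.95 and -1.92), and Ms4a1 on 0 of 4. The erythroid marker Hba-a1 was well above background on all 4 arrays, with mean levels of -2.55 with WGP and -1.85 in medium, and Klf1 on 0 of 4. The part of such cells in the results below was not tested. In a bulk sample, fewer cells of a type and less RNA per cell cannot be told apart.

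Each synthetase recognises 1 amino acid and its tRNAs, apart from the fused enzyme of Eprs, which serves glutamate and proline. A synthetase first activates its amino acid with ATP and then transfers it to the tRNA, which carries it to the ribosome. The enzymes fall into class I and class II by the fold of their catalytic domain. Mammalian cells keep one set in the cytosol and another, also encoded in the nucleus, in mitochondria, where it serves the translation of the respiratory chain subunits of the mitochondrial genome. Several cytosolic enzymes are held together with scaffold proteins in the multisynthetase complex. Uncharged tRNA activates the kinase GCN2, phosphorylation of the translation factor eIF2alpha follows, and the transcription factor ATF4 is then made and raises genes of amino acid supply, among them many cytosolic synthetases.

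The transcripts of the cytosolic set leaned towards higher levels with WGP, and those of the mitochondrial set did not. Of the 30 synthetase genes measured, 6 rose, 1 fell and 23 did not pass the test. All 6 that rose, Rars, Aars, Tars, Farsa, Wars and Cars, and the 1 that fell, Vars, belong to the 17 measured genes of the cytosolic set. In the mitochondrial set 0 of 13 measured genes passed limma's adjusted threshold, and 2 had an unadjusted p under 0.05, Tars2 with a higher and Cars2 with a lower level with WGP. The median change was 0.31 in the cytosolic set and -0.04 in the mitochondrial set, beside 0.03 over all genes measured. The difference between these sets was not tested. Taken slide by slide, the cytosolic median was 0.30 and 0.42 and the mitochondrial median -0.04 and 0.02. The 6 genes that rose make up 35.3% of the cytosolic set, beside 23.2% of all genes measured, and 5.88% of the set fell, beside 17.4%. The share of all 30 synthetases that changed in either direction was 23.3%, below the 40.5% of all genes. A change of at least 2-fold past the threshold was seen in 1 member, Rars, which was higher. Of all genes 14.7% passed this limit, and 8.05% did so on the higher side. The arrays of both groups did not overlap in 20 of 30 members (66.7%), 13 with higher and 7 with lower levels with WGP. Of all genes 75.1% showed no overlap, 40.7% with higher and 34.4% with lower levels. With each array left out in turn, the cytosolic median was 0.282 to 0.405 and the mitochondrial median -0.0583 to -0.00825. Fewer members, and fewer of all genes, passed the threshold in each of these fits. In these fits the lone array of a group was assumed to vary like the other group.

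**Figure D1:**
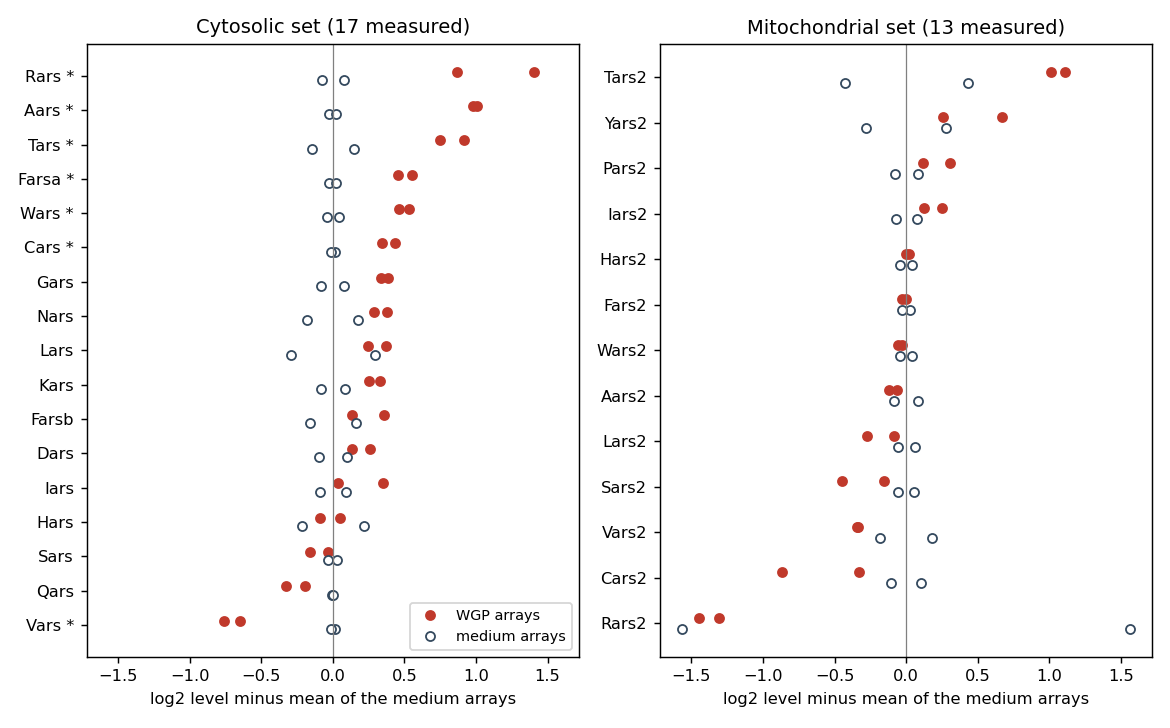
Level of each measured synthetase on every array, as log2 level minus the mean of the medium arrays, for the cytosolic and the mitochondrial set. Filled points are the 2 WGP arrays, open points the 2 medium arrays, and a star marks the 7 genes with an adjusted p under 0.05, all in the cytosolic set. The point far to the right in the mitochondrial panel is Rars2 on medium replicate 2.

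**Figure D2:**
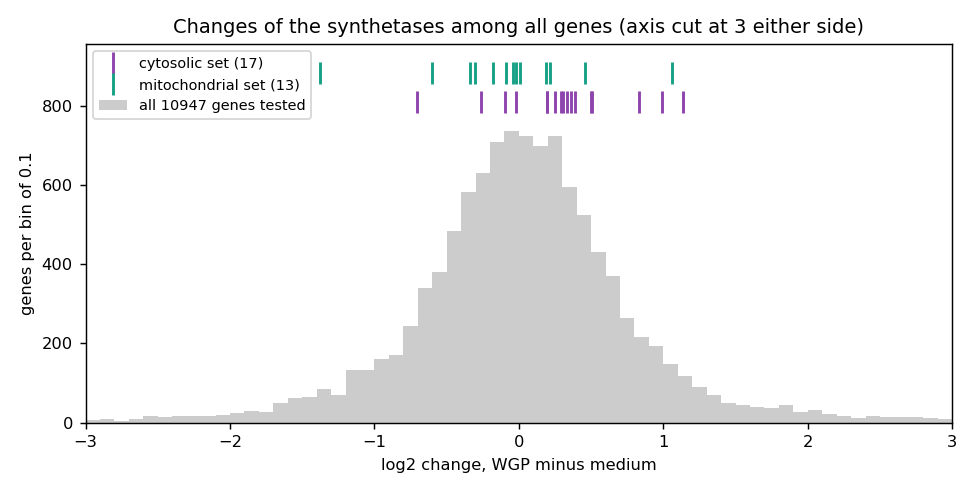
Histogram of the log2 change, WGP minus medium, over all 10947 genes measured (grey bars, genes per bin of 0.1), with the 17 cytosolic and 13 mitochondrial synthetases as ticks. Most ticks of the cytosolic set lie right of 0, and the mitochondrial ticks lie on both sides.

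Aars, the alanyl-tRNA synthetase, rose with the smallest standard error among the 7 genes that changed. Its level was 3.76 and 3.79 on the WGP arrays, against 2.76 and 2.81 on the medium arrays. The groups lay about 1 log2 unit apart and the arrays of a group almost coincided. The change was 0.99 ± 0.093 (SE), or 1.99-fold (limma, adjusted p = 0.00449). It stayed past the threshold in all 16 alternative analyses (adjusted p up to 0.038). Counts over these 16 alternatives, here and below, include the setting that takes the repeated replicate 3 files as samples. Those copies add no independent array, so a call in that setting carries no weight of its own.

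Rars, the arginyl-tRNA synthetase and a component of the multisynthetase complex, rose most, by 2.20-fold (1.13 ± 0.21, SE; limma, adjusted p = 0.0202). Its level was -0.52 and -1.06 on the WGP arrays, against -1.84 and -2.00 on the medium arrays. The WGP arrays differed more from each other than the medium arrays did, but both were above them. Its spots were dim, with processed signals of 41.4 and 27.0 on the WGP arrays and 23.9 and 17.2 on the medium arrays. The adjusted p came to 0.0643 on leaving out medium replicate 1 and to 0.0863 on leaving out medium replicate 2, which ended the call. With normexp background correction, whose offset of 50 compresses dim signals by construction, the change was 0.36 after scaling to the 75th percentile (adjusted p = 0.0324) and 0.28 after quantile normalization (adjusted p = 0.0839).

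Tars, the threonyl-tRNA synthetase, had levels of 1.37 and 1.20 on the WGP arrays, against 0.60 and 0.31 on the medium arrays. Both WGP arrays were above both medium arrays, by more than the arrays of either group differed. Its processed signals before scaling, 153 and 129 on the WGP arrays and 130 and 84.8 on the medium arrays, overlapped between the groups. The rise was 1.78-fold (0.83 ± 0.15, SE; limma, adjusted p = 0.0176). It missed the threshold when WGP replicate 1, WGP replicate 2 or medium replicate 2 was left out, with an adjusted p of 0.0752, 0.0516 and 0.0531 in that order.

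The other 3 rises were smaller than 1.5-fold. Farsa, the alpha subunit of phenylalanyl-tRNA synthetase, had levels of 3.10 and 3.01 on the WGP arrays and 2.53 and 2.58 on the medium arrays, a change of 0.50 ± 0.098 (SE; limma, adjusted p = 0.0220). Wars, the tryptophanyl-tRNA synthetase, which interferon-gamma is known to induce in human cells, had levels of 3.19 and 3.12 on the WGP arrays and 2.70 and 2.62 on the medium arrays (0.50 ± 0.098, SE; limma, adjusted p = 0.0227). Cars, the cysteinyl-tRNA synthetase, had levels of 3.70 and 3.78 on the WGP arrays and 3.37 and 3.33 on the medium arrays (0.39 ± 0.096, SE; limma, adjusted p = 0.0393). In all 3 genes the groups were clear of each other, and the difference was a few times the spread between arrays of a group. With the slide as a block the change of Cars no longer passed (adjusted p = 0.0690). Each of the 3 calls was lost when any of the 4 arrays was left out (adjusted p 0.0629 to 0.120 for Farsa, 0.0536 to 0.120 for Wars and 0.0881 to 0.192 for Cars), and all 3 were lost after quantile normalization (adjusted p 0.0576 to 0.164). Before scaling to the array percentile the processed signals of Farsa were 508 and 451 on the WGP arrays and 494 and 409 on the medium arrays, those of Wars 540 and 488 against 557 and 421, and those of Cars 767 and 772 against 885 and 692. These unscaled signals overlapped between the groups, as did those of Tars. Those of Aars, 803 and 778 on the WGP arrays and 582 and 481 on the medium arrays, did not overlap.

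Vars, the valyl-tRNA synthetase, was the only synthetase that fell. Its level was 0.18 and 0.29 on the WGP arrays, against 0.95 and 0.92 on the medium arrays, which is 1.63-fold lower with WGP (-0.70 ± 0.10, SE; limma, adjusted p = 0.0106). Both WGP arrays lay below both medium arrays, also before scaling, with processed signals of 66.9 and 68.7 on the WGP arrays and 166 and 130 on the medium arrays. The call held in 14 of 16 alternatives and was lost without WGP replicate 1 (adjusted p = 0.0625) and with no filter on dim probes (adjusted p = 0.0686). With normexp the change was -0.43 after either scaling.

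Of the 10 other measured genes of the cytosolic set, 7 had a higher and 3 a lower mean with WGP, none past the threshold as reported. Gars, the glycyl-tRNA synthetase, which makes both the cytosolic and the mitochondrial enzyme, had levels of 5.23 and 5.18 on the WGP arrays and 4.92 and 4.76 on the medium arrays (0.36 ± 0.11, SE; limma, adjusted p = 0.0609). Its groups did not overlap, and it passed the threshold, for example, after scaling to the array median (adjusted p = 0.0268). Qars, the glutaminyl-tRNA synthetase, had levels of 3.52 and 3.65 on the WGP arrays and 3.84 and 3.85 on the medium arrays (-0.26 ± 0.10, SE; limma, adjusted p = 0.109), and it passed after quantile normalization (adjusted p = 0.0352). Kars, the lysyl-tRNA synthetase, which also serves both compartments, differed by 0.29 ± 0.11 (SE; adjusted p = 0.108), and Nars, the asparaginyl-tRNA synthetase, by 0.33 ± 0.16 (SE; adjusted p = 0.162). Lars, the leucyl-tRNA synthetase, known from human cells and yeast also as a leucine sensor of the growth kinase complex mTORC1, differed by 0.31 ± 0.23 (SE; adjusted p = 0.328), with overlapping levels of 1.37 and 1.25 on the WGP arrays and 1.29 and 0.71 on the medium arrays. The beta subunit of the phenylalanyl enzyme, Farsb, differed by 0.25 ± 0.16 (SE; adjusted p = 0.281), beside the 0.50 of the alpha subunit Farsa. Dars (0.20), Iars (0.19), Hars (-0.02) and Sars (-0.10), the enzymes for aspartate, isoleucine, histidine and serine, showed the smallest differences of the set, with adjusted p between 0.254 and 0.935. With normexp and scaling to the 75th percentile Sars changed by -0.28 and passed as lower (limma, adjusted p = 0.0392).

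Calls fell in both structural classes, and a smaller share was called in the multisynthetase complex than outside it. Of 7 measured class I enzymes of the cytosolic set 3 rose and 1 fell (42.9% and 14.3%, median 0.31). Of 10 class II enzymes 3 rose (30%, median 0.31). Among the 6 measured enzymes of the complex, Rars, Dars, Iars, Kars, Lars and Qars, only Rars passed (16.7%, median 0.24). Of the 11 measured enzymes outside it, 5 rose and 1 fell (45.5% and 9.09%, median 0.36). Among all genes measured 23.2% were higher and 17.4% lower. The difference between these subsets was not tested.

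Synthetase genes with an amino acid response element near their start are known as ATF4 targets, so the promoters in RefSeq (assembly GRCm38.p6, from 250 bases before to 50 after the annotated start) were read for its core. The pattern searched, on both strands, was TGATGNAA, the core that ATF4 binds together with a C/EBP partner. Of the 36 members, 27 have such a window, and Cars, Rars, Vars and Wars are among the 9 that were not used here. A match was found for 5 of these 27 members, Aars, Tars, Gars, Iars and Yars, beside 3.97% of 32851 windows in all. Here and for the other patterns, members were counted by gene and the whole by window, so these figures differ in their unit. The form TGATGCAA, which TGATGNAA includes, stood in the windows of Aars, Tars, Iars and Yars, beside 0.895% of all windows. The stretches that hold these matches are given 5′ to 3′ on the strand of the gene, with the match in capitals, as TTGCATCA or TTTCATCA where it lies on the opposite strand. Aars and Tars are shown from 250 bases before the start up to it, since these rose and carry a match upstream of the start, and the others by the surroundings of the match.
Aars, chr8:111033592-111033841, + strand: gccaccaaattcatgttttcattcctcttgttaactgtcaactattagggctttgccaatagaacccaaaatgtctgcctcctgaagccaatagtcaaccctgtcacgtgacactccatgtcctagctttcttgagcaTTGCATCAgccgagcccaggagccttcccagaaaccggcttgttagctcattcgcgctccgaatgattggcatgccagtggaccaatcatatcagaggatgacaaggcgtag
Aars, second match, chr8:111033840-111033869, + strand: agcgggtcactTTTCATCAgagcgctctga
Tars, chr15:11399659-11399908, - strand: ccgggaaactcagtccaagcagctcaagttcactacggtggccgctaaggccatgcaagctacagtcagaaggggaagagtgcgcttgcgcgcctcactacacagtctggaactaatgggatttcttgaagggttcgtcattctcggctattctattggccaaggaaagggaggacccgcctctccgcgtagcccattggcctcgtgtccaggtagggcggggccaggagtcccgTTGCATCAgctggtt
Gars, chr6:55037901-55038000, + strand: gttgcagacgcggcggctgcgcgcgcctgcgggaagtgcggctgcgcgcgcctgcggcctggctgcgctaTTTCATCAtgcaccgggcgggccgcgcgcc
Iars, chr13:49682126-49682155, + strand: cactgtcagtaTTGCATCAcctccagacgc
Yars, chr4:129189895-129189924, + strand: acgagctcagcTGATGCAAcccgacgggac
The matches began 112 bases before the start and at base 10 after it in Aars, 15 bases before it in Tars, 30 bases before it in Gars, and at base 8 after it in Iars and base 4 in Yars. Of these genes Aars and Tars rose, Gars (0.36 ± 0.11, SE) and Iars (0.19 ± 0.16, SE) did not pass the test, and Yars was well above background on 0 of 4 arrays. Farsa, which rose, has a window without a match. The E-box CACGTG was searched in the same windows and stood in those of Aars, Tars, Iars, Farsb and Ears2, beside 7.15% of all windows. A match of letters does not show that a factor binds there.

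In the mitochondrial set the 13 measured genes lay on both sides of 0, with 5 higher and 8 lower means with WGP and 4 within 0.1 of 0. Tars2, the mitochondrial threonyl enzyme, had levels of 1.78 and 1.88 on the WGP arrays, against 1.20 and 0.34 on the medium arrays. The groups did not overlap, but the medium arrays differed from each other more than the WGP mean did from the nearer of them, and the change of 1.06 ± 0.31 (SE) did not pass (limma, adjusted p = 0.0595). It passed in 8 of 16 alternatives, among them those without medium replicate 1 (adjusted p = 0.0169) and without medium replicate 2 (adjusted p = 0.0490). Its dimmer probe gave the opposite sign, -0.12, with -0.72 and -0.66 on the WGP arrays and -0.85 and -0.30 on the medium arrays. Cars2, the mitochondrial cysteinyl enzyme, had levels of -1.45 and -0.92 on the WGP arrays and -0.69 and -0.48 on the medium arrays (-0.60 ± 0.22, SE; limma, adjusted p = 0.0962). With the slide as a block Cars2 passed (adjusted p = 0.0448), which makes 2 lower members in place of 1, and it also passed without WGP replicate 2 (adjusted p = 0.0466). With normexp and scaling to the 75th percentile its change was -0.07.

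Rars2, the mitochondrial arginyl enzyme, had the largest mean difference of the mitochondrial set, which rested on 1 spot. Its level was 0.24 and 0.10 on the WGP arrays, against -0.02 and 3.11 on the medium arrays. Medium replicate 2 stood about 3 log2 units above the other 3 arrays, which lay close together. The median local background of that spot was 116.5, against 23.0 to 26.0 for the same probe on the other arrays, and the scanner software marked its local background as uneven or outlying. The change was -1.38 ± 1.09 (SE; limma, adjusted p = 0.361) on all 4 arrays. Without medium replicate 2 it was 0.18 (adjusted p = 0.346), and without medium replicate 1 it was -2.94 (adjusted p = 0.0120). Of 120 spots behind the measured members, 2 carried such a mark. The second was the brighter probe of Wars on medium replicate 1. With marked spots left out, Wars rested on its dimmer probe, with a change of 0.14 (adjusted p = 0.360), and Rars2 had no value.

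The other mitochondrial enzymes differed by less. Yars2 (0.46 ± 0.26, SE), Vars2 (-0.34 ± 0.16), Sars2 (-0.30 ± 0.14), Pars2 (0.21 ± 0.13), Iars2 (0.19 ± 0.11) and Lars2 (-0.18 ± 0.12), which charge the mitochondrial tRNAs of tyrosine, valine, serine, proline, isoleucine and leucine, had adjusted p between 0.154 and 0.291 in limma. With normexp Sars2 passed as lower, after scaling to the 75th percentile (-0.33, limma, adjusted p = 0.0269) and after quantile normalization (-0.31, adjusted p = 0.0348). Aars2 (-0.09), Wars2 (-0.04), Fars2 (-0.02) and Hars2 (0.01), the enzymes for alanine, tryptophan, phenylalanine and histidine, had adjusted p between 0.537 and 0.946. As analysed here, the smallest change that passed among all genes was 0.334, and no smaller difference passed.

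**Figure D3:**
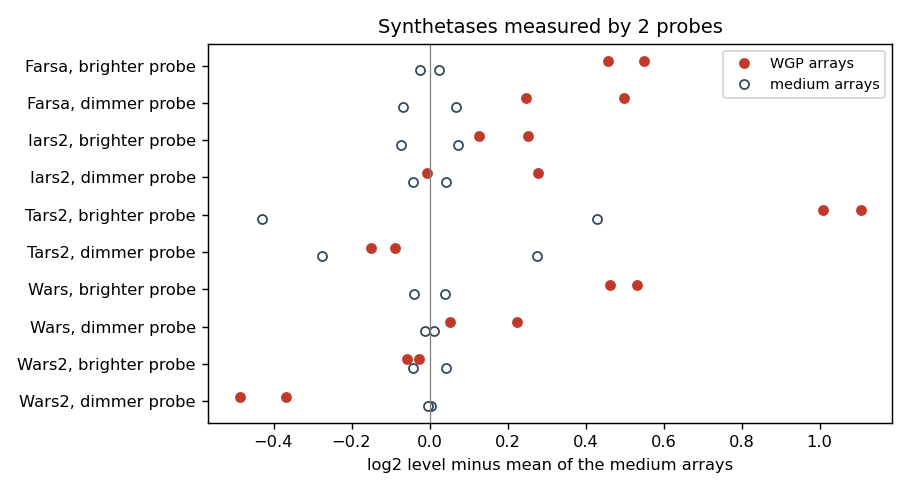
Synthetases measured by 2 probes well above background, as log2 level minus the mean of the medium arrays on each probe (filled, WGP arrays; open, medium arrays). Both probes of Farsa, Wars, Iars2 and Wars2 gave the same sign and those of Tars2 opposite signs.

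Of the 5 members with 2 kept probes, 4 had the same sign on both. The dimmer probe of Farsa gave 0.37, beside 0.50 for the brighter one, and that of Wars 0.14, beside 0.50. With the mean of the probes the change of Wars was 0.32 and did not pass (adjusted p = 0.0684). The dimmer probe of Iars2 gave 0.14, beside 0.19, and that of Wars2 -0.43, beside -0.04.

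Setting each cytosolic enzyme beside the mitochondrial enzyme of the same amino acid gave 12 pairs with both measured, with the Fars2 gene used for both subunits of the cytosolic phenylalanyl enzyme. The cytosolic change was above the mitochondrial one in 9 of the 12 pairs, and on both slides in 8. The changes were 0.99 for Aars and -0.09 for Aars2 (1.21 and 0.96 apart on the slides), and 0.39 for Cars and -0.60 for Cars2 (1.09 and 0.88 apart). For tryptophan they were 0.50 for Wars and -0.04 for Wars2, and for leucine 0.31 for Lars and -0.18 for Lars2. The widest gap, 2.51 between Rars and Rars2, contains the outlying Rars2 spot, and on slide 1, which does not hold that spot, it was 1.08. Valine was the only amino acid whose cytosolic gene lay below the mitochondrial one on both slides, with -0.70 for Vars and -0.34 for Vars2. Threonine ran the same way on slide 2 and the opposite way on slide 1. With 2 arrays per group, an exact permutation test of a single pair cannot go below p = 0.333, so these gaps are given without a test.

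**Figure D4:**
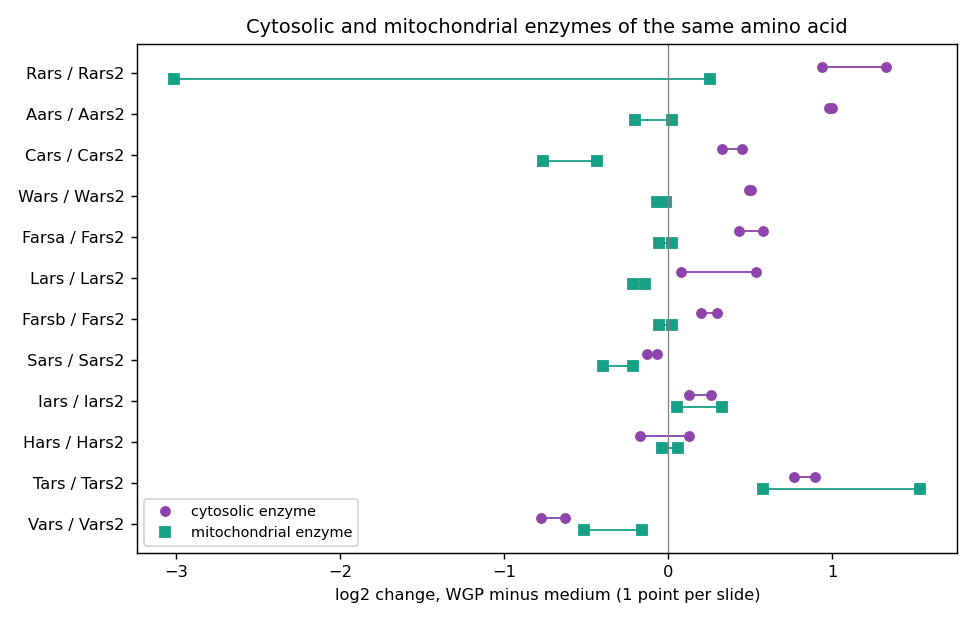
Log2 change, WGP minus medium, of the cytosolic and the mitochondrial enzyme of the same amino acid, 1 point per slide joined by a line. The cytosolic points lie right of the mitochondrial ones on both slides in 8 of 12 pairs and left of them on both slides for Vars and Vars2.

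For 6 members no probe passed the filter: Eprs, which makes the fused glutamyl-prolyl enzyme, Mars1 and Yars, the cytosolic enzymes for methionine and tyrosine, and Ears2, Mars2 and Nars2, the mitochondrial enzymes for glutamate, methionine and asparagine. The Mars1 probe was well above background on 1 of 4 arrays, at levels of -5.03 and -4.15 on the WGP arrays and -2.90 and -3.49 on the medium arrays. The probes of the other 5 reached that limit on 0 of 4 arrays, so no change is stated for them. All 30 measured members were well above background on all 4 arrays.

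Some genes whose products hold or complement the synthetases also changed. Of the 3 scaffold genes of the multisynthetase complex, 2 rose (66.7%, beside 23.2% of all genes), and Aimp1 differed by 0.01 (limma, adjusted p = 0.915). Those that rose were Eef1e1, by 0.99 ± 0.17 (SE; limma, adjusted p = 0.0169) and Aimp2, by 0.77 ± 0.10 (SE; adjusted p = 0.00967). Leaving out WGP replicate 1 ended the call of Eef1e1 (adjusted p = 0.0669), and leaving out WGP replicate 2 ended those of Eef1e1 and Aimp2 (adjusted p = 0.0539 and 0.0546). Mitochondria have no glutaminyl-tRNA synthetase of their own and instead convert misacylated glutamyl-tRNA with an amidotransferase. Both measured subunits of it were lower with WGP, beside 17.4% of all genes, Gatc by -0.90 ± 0.15 (SE; adjusted p = 0.0145) and Gatb by -0.38 ± 0.098 (SE; adjusted p = 0.0424). Gatb lost its call when any array was left out (adjusted p 0.0698 to 0.178) and with the slide as a block (adjusted p = 0.0713), and Gatc without WGP replicate 2 (adjusted p = 0.0629). With normexp and scaling to the 75th percentile the changes were -0.06 for Gatb and -0.03 for Gatc. Of 4 measured relatives of the synthetases, 2 fell, beside 17.4% of all genes (median -0.45, or -0.34 with Tarsl2 at its bound), and Prorsd1 (0.31) and Aarsd1 (0.09) did not pass. Dtd1, which removes D-amino acids from mischarged tRNA, fell by 0.98 on the log2 scale (adjusted p = 0.0102). Tarsl2, a second threonyl-tRNA synthetase-like gene, was not well above background with WGP and was at least 1.70-fold lower (adjusted p = 0.00277), and its change was 0.02 with normexp and scaling to the 75th percentile (adjusted p = 0.854).

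Genes that process and modify tRNA more often rose than fell. Of 33 measured, 14 rose and 4 fell (42.4% and 12.1%, beside 23.2% and 17.4% of all genes), with a median change of 0.18. Trmt61a, the catalytic subunit of an enzyme that methylates an adenosine of tRNA, had levels of 1.96 and 1.86 on the WGP arrays, against -0.09 and 0.12 on the medium arrays, a 3.70-fold rise (limma, adjusted p = 0.00234). Mettl1, the guanosine methyltransferase of the tRNA variable loop, rose 3.64-fold (adjusted p = 0.00216), with 1.25 and 1.36 on the WGP arrays and -0.64 and -0.48 on the medium arrays. Pus7, a pseudouridine synthase, rose 2.15-fold (adjusted p = 0.00915). Nsun3, a methyltransferase of the mitochondrial methionine tRNA, was not well above background with WGP and was at least 1.61-fold lower (adjusted p = 0.0108), and its change was 0.04 with normexp and scaling to the 75th percentile. Elac1, a tRNA 3′-processing nuclease, changed by -0.95 ± 0.16 (SE; adjusted p = 0.0148) and Trit1, a tRNA isopentenyltransferase, by -0.56 ± 0.092 (SE; adjusted p = 0.0143). Leaving out WGP replicate 1 ended both calls (adjusted p = 0.0610 for Elac1 and 0.0820 for Trit1), as did leaving out WGP replicate 2 (adjusted p = 0.0537 and 0.0787), and Trit1 also missed the threshold without medium replicate 2 (adjusted p = 0.0527). Of 4 genes of tRNA export 2 rose, beside 23.2% of all genes. Ran, the GTPase of nuclear transport, rose 2.21-fold (adjusted p = 0.00356) and Nxt1, a nuclear export cofactor, 1.82-fold (adjusted p = 0.0152), and the call of Nxt1 ended on leaving out either WGP array (adjusted p = 0.0626 and 0.0615).

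Of 8 cytosolic elongation genes, whose products work with charged tRNA at the ribosome, 1 rose and 2 fell (median -0.20). The 37.5% of them that changed in either direction lay near the 40.5% of all genes. Eef2, the factor that moves the ribosome along, had levels of 3.67 and 3.74 on the WGP arrays, against 4.57 and 4.45 on the medium arrays, 1.75-fold lower (limma, adjusted p = 0.00833). Its inhibitory kinase Eef2k was not well above background with WGP and, as reported, at least 4.73-fold lower there (adjusted p = 0.0149). Over the alternatives with a value, the log2 change of Eef2k ran from -3.50 to -0.38. Leaving out medium replicate 1 or medium replicate 2 ended this call (adjusted p = 0.0664 and 0.0593). Eif5a, which helps the ribosome past difficult peptide bonds, rose by 0.46 ± 0.10 (SE; adjusted p = 0.0295), and lost its call when any array was left out (adjusted p 0.0636 to 0.146) and with the slide as a block (adjusted p = 0.0548). Of 9 mitochondrial translation factors 2 rose (22.2%, beside 23.2% of all genes; median -0.01), the elongation factors Gfm1 (0.74 ± 0.094, SE; adjusted p = 0.00826) and Tsfm (0.73 ± 0.13, SE; adjusted p = 0.0168). Gfm1 lost its call without WGP replicate 1 (adjusted p = 0.0520), and Tsfm without WGP replicate 1, medium replicate 1 or medium replicate 2 (adjusted p = 0.0716, 0.0582 and 0.0678).

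The amino acid response, which many cytosolic synthetases belong to, was higher with WGP for part of its genes. Of 19 measured genes of ATF4 and its targets 8 rose and 2 fell (42.1% and 10.5%, beside 23.2% and 17.4% of all genes), with a median change of 0.79. Atf4 itself had levels of 6.66 and 6.45 on the WGP arrays, against 5.07 and 4.61 on the medium arrays, a 3.29-fold rise (limma, adjusted p = 0.00669). Cebpb, a C/EBP factor that can pair with ATF4, rose 6.35-fold (adjusted p = 0.00137) and Slc7a1, the cationic amino acid transporter that imports arginine and lysine, 2.77-fold (adjusted p = 0.00264). Both groups were far apart for these 3 genes, and each call held in all 16 alternatives. Sesn2, a stress protein that restrains mTORC1, had levels of 1.20 and 1.25 on the WGP arrays and 2.07 and 2.01 on the medium arrays, 1.76-fold lower (adjusted p = 0.00681). The amino acid transporter Slc38a2 changed by -0.53 ± 0.10 (SE; adjusted p = 0.0223), which missed the threshold without WGP replicate 1, WGP replicate 2 or medium replicate 2 (adjusted p = 0.114, 0.0824 and 0.0736). With normexp and scaling to the 75th percentile its change was -0.14 (adjusted p = 0.272).

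Upstream of ATF4, 6 of 9 genes of the eIF2alpha kinases and their regulators rose and 0 fell by limma's adjusted threshold, as by an unadjusted p under 0.05 (median change 0.51). Of all genes 23.2% rose and 17.4% fell. Of the kinases themselves only Eif2ak4, the GCN2 gene, passed. Eif2ak3 (0.11), Eif2ak2 (0.08) and Eif2ak1 (-0.28) did not (limma, adjusted p = 0.493, 0.718 and 0.245). Ppp1r15a, the phosphatase subunit that reverses eIF2alpha phosphorylation, had levels of 3.13 and 3.19 on the WGP arrays, against 1.82 and 1.95 on the medium arrays, a 2.42-fold rise (adjusted p = 0.00340). Impact, a known inhibitor of GCN2 activation, rose 2.13-fold (adjusted p = 0.00504). Eif2s1, which encodes eIF2alpha, rose by 0.72 ± 0.097 (SE; adjusted p = 0.00937), and the GCN2 gene Eif2ak4 by 0.45 ± 0.11 (SE; adjusted p = 0.0401), followed by its activator Gcn1 (0.52, adjusted p = 0.0197) and the second phosphatase subunit Ppp1r15b (0.51, adjusted p = 0.0384). The calls of Ppp1r15a and Impact held in all 16 alternatives. Without WGP replicate 1 the calls of Eif2s1 (adjusted p = 0.0556), Gcn1 (0.101), Ppp1r15b (0.161) and Eif2ak4 (0.115) were lost. Without WGP replicate 2 the same 4 were lost (adjusted p of 0.0519, 0.0971, 0.102 and 0.176), and without medium replicate 2 those of Gcn1 (0.0657), Ppp1r15b (0.106) and Eif2ak4 (0.117). Eif2ak4 was also lost without medium replicate 1 (adjusted p = 0.0612) and with the slide as a block (adjusted p = 0.0682). Phosphorylation and protein levels were not measured, and the shares of these lists are descriptions without a test against other genes.

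**Figure D5:**
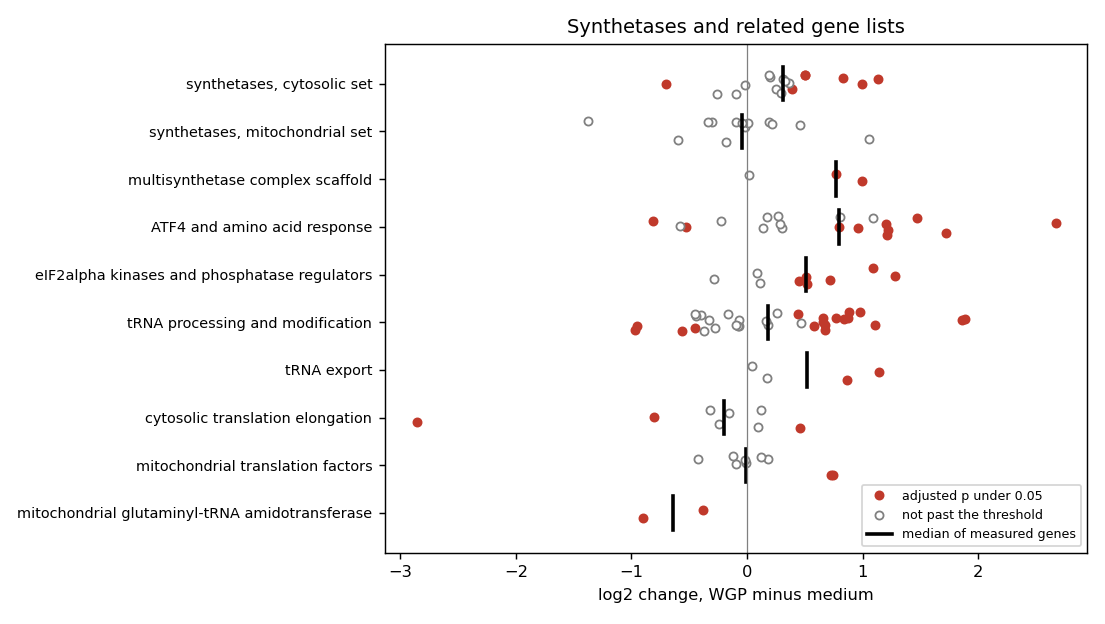
Log2 change, WGP minus medium, of every measured gene of the synthetase sets and the related lists. Filled points passed an adjusted p under 0.05, open points did not, and the black bar is the median of the measured genes, which is 0.31 for the cytosolic and -0.04 for the mitochondrial synthetases and 0.79 for the ATF4 and amino acid response genes.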

How the data were processed

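Cy3-labelled cRNA was made from total RNA of the macrophages and measured on Agilent arrays with 1 colour, per the labels' protocols. Per the submitters' processing notes, the scans were read with Agilent Feature Extraction 10.7.3. The values are spot intensities: per the file headers, the processed signal deposited by the authors is background-subtracted and not normalized between arrays. The authors also deposited a table of log2 values. After centring each probe it correlated at 0.999906 with the values used here over 39394 probes (largest difference 0.00996), with column medians of 0.0997 and 0.13 for WGP and -0.0145 and 0.164 for medium. The baseline of its centring is unknown, and it served as an alternative only.

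Groups come from the labels. Replicate 3 differed from replicate 1 in median signal and background at 0 of 44397 spots in both groups. Its processed signal was the mean of replicates 1 and 2 in medium (within 0.695%) and 1.3 times replicate 1 with WGP (within 0.498%). Replicate 3 was therefore left out. Control spots (1377) and outlier spots (118 to 183 per array) were removed, and no spot (0) was saturated. Each processed signal was divided by its array's 75th percentile and put on the log2 scale, and the spots of a probe were averaged. A RefSeq table of GRCm38.p6 gave a gene for the accession of 26761 (67.87%) of 39429 probes, and several genes for 0. The array design is older, so the table gave names only. Symbols are those of that table, and all 36 members have a named probe. A probe was kept if well above background on both arrays of a group (for repeated spots, a share of at least 0.5 of them), and the brightest kept probe stood for its gene.

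The comparison used lmFit and eBayes of limma 3.58.1 under R 4.3.3 (2 residual and 2.19 prior degrees of freedom), with Benjamini-Hochberg adjustment over 10947 genes. The code was tested on simulated arrays. A fold for a gene not well above background in one group is given against the higher of its own level and the lowest level of a probe above background on each array. It is a lower bound under the reported scaling only. Where the gene's own level was the higher, as for Cd274, it equals the measured fold and is no bound. Per the file headers replicate 1 of both groups was on slide 1 and replicate 2 of both on slide 2. Of the files left out, WGP replicate 3 carries slide 1 and medium replicate 3 slide 3. On slides 1 and 2 WGP was at position 3 and medium at position 1, so position and treatment cannot be told apart. The slide pairs the arrays, and their deviations from the group means correlated at 0.147. With 2 arrays per group the deviations on slide 2 mirror those on slide 1, so the second pair adds no information. How strong the pairing is cannot be told from this value.

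The members, the related lists and the markers were chosen with earlier results of these data known, so no list was tested as a whole. The summed levels of 2 marker lists are not reported here. Every member is described, and from each related list the 3 largest rises and falls past the threshold, or all changed genes of lists of up to 10. Alternatives were other scalings, normexp (offset 50, on the median spot signal because no mean signal column was used, a departure from the plan), other filters and probe rules, the slide block, the repeated files, and each array left out. Leaving out spots with a marked local background was chosen after seeing the data. The number of arrays limits the precision.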

Additional observations from a re-analysis of the deposited data

How the results depend on the processing

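The cytosolic median was positive in all 17 settings (the reported one and 16 alternatives) and 0.129 to 0.34 above the median of all genes, while the mitochondrial median lay 0.027 to 0.131 below it (differences of -0.131 to -0.027) in all 17. These settings are not independent checks. Array-median scaling and the slide block cannot move these differences and repeated the reported 0.28 and -0.071. The deposited values and the averaging of replicate 3 use nearly the same numbers, and another setting counts copied files. Scaling to the array median moved the median change of all genes to 0.193, in place of 0.0281, and the part of all changed genes that was higher to 72.7%, in place of 57.2%. Under it the cytosolic median was 0.473 and the mitochondrial 0.122, and Hars (0.144), Sars (0.0684), Aars2 (0.0726), Fars2 (0.147) and Wars2 (0.122) turned positive, all below that shift. Quantile normalization left 3 members higher and 2 lower, with a mitochondrial median of -0.102 and turned signs for Hars2 (-0.102) and Wars2 (0.00549). Normexp with 75th percentile scaling gave 4 lower members (Qars, Sars, Vars and Sars2) and medians of 0.171 and 0.0142, and turned Aars2 (0.0152), Hars2 (-0.139), Vars2 (0.0315), Wars2 (0.0142), Tarsl2 (0.0237) and Nsun3 (0.0439). Normexp with quantile normalization gave 3 lower members (Qars, Vars and Sars2) and a cytosolic median of 0.178, and turned Aars2 (0.00424), Hars2 (-0.117) and Wars2 (0.00514). Without a filter on dim probes the changed genes numbered 1532 of 20274, and 1 member was higher (7 at an unadjusted p under 0.05) and 0 lower (2 unadjusted), since Rars, Tars, Farsa, Wars, Cars and Vars missed limma's threshold there (adjusted p 0.0686 to 0.184). The mean of all kept probes gave a mitochondrial median of -0.0923. The slide as a replicate block gave 2 lower members and changed the calls of Cars, Cars2, Eif5a, Eif2ak4, Gatb and Flcn but no other named gene's. Treating every deposited file as a sample, copies included, gave 7449 changed genes and 12 higher and 6 lower members. Leaving out each array in turn gave 2258 to 3281 changed genes, 2 to 3 higher and 0 to 2 lower members, and medians of 0.282 to 0.405 and -0.0583 to -0.00825. It turned Hars (0.049 without WGP replicate 1, 0.198 without medium replicate 2, range from -0.239), Fars2 (0.00882 without medium replicate 1, range from -0.0436), and, without medium replicate 2, Hars2 (-0.033, range to 0.0506), Rars2 (0.184, range from -2.943) and Wars2 (5.33e-05, range from -0.0851). None of the 8 members that turned had passed the threshold as reported. The cause of these shifts was not tested. Of 39 changed related genes named, 11 passed in all 16 alternatives, Cd274 in the 15 that gave it a value, and 18 lost their call without at least 1 array. Calls were also lost by 25 of them with no filter (adjusted p 0.0507 to 0.21), by 4 with scaling to the median (0.0727 to 0.316), by 3 with quantile normalization (0.051 to 0.0874) and by 7 with each normexp setting (0.0715 to 0.854).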

Other observations

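Wars, the member known from human cells to respond to interferon-gamma, can be set beside other genes that interferon-gamma induces. Of 12 of these measured, 7 rose and 0 fell with WGP (limma; 1 had a lower level at an unadjusted p under 0.05), or 58.3% higher beside 23.2% of all genes, with a median change of 1.22 beside 0.50 for Wars. Gbp2, a guanylate-binding protein of intracellular defence, had levels of 1.57 and 1.80 on the WGP arrays, against -0.46 and -0.67 on the medium arrays, a 4.76-fold rise (limma, adjusted p = 0.00221). Cxcl10, a chemokine for T cells, rose 4.61-fold (adjusted p = 0.00142). Cd274, which encodes the checkpoint ligand PD-L1, was not well above background in medium. By its measured levels it was 7.35-fold higher with WGP (limma, adjusted p = 0.00201), which is no lower bound. Its log2 change was 2.88 as reported and ran from 0.78 to 3.05 over the 15 alternatives with a value.

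Genes of mTORC1, the growth kinase complex that senses amino acids, numbered 15 measured, of which 5 rose and 3 fell (33.3% and 20.0%, beside 23.2% and 17.4% of all genes), with a median change of 0.12. Rheb, the GTPase that activates mTORC1, was not well above background in medium and was at least 1.98-fold higher with WGP (limma, adjusted p = 0.00716), and normexp followed by quantile normalization ended the call (adjusted p = 0.140). Parts of the complex's machinery rose, the lysosomal anchor subunit Lamtor3 1.83-fold (adjusted p = 0.00868) and the mTOR partner Rptor by 0.58 ± 0.091 (SE; adjusted p = 0.0131) as log2. The call of Rptor ended on leaving out either WGP array (adjusted p = 0.0724 and 0.0761). Sesn1, a stress protein that restrains mTORC1, had levels of 1.25 and 1.29 on the WGP arrays, against 3.44 and 3.29 on the medium arrays, and was 4.28-fold lower (adjusted p = 0.00165). Lamtor4, another anchor subunit, was 2.29-fold lower (adjusted p = 0.00901). Flcn, which acts on the Rag GTPases, changed by -0.35 ± 0.093 (SE; adjusted p = 0.0459) and lost its call when any array was left out (adjusted p 0.0967 to 0.201) and with the slide as a block (adjusted p = 0.0805).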
